A study of Mus musculus with 15 samples.

Results

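Transcripts that normally mark B cells were followed in CD4 T cells sorted from the small intestine of mice. The set held 5 genes, Cd79a, Cd79b, Cd22, Ms4a1 and Pax5, and every probe that carried one of these gene names and was not a control was included, which gave 7 of the 55681 probes on the array. The genes were chosen by name as B-lineage transcripts, and the question was whether they vary together between arrays as well as between diets. Cd79a and Pax5 each had 2 probes, and the one with the higher mean level over the arrays is called probe 1. That order only numbers the probes and picks 1 probe per gene for the correlations.

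The study measured total RNA from CD4 T lymphocytes that were sorted by flow cytometry from the lamina propria, the tissue layer under the gut epithelium, of male mice. The groups were control mice on normal chow, mice at day 10 of a high-fat diet and mice at day 30 of that diet, with 5 arrays each, and the labels name no genotype, strain or age. All 15 samples went through SuperAmp, a commercial amplification for small amounts of RNA, and were hybridised to 1-colour Agilent arrays. Nothing states that each sample is a mouse of its own, and p-values then reflect the scatter among the samples alone, which could be technical. The labels give no day for the control samples, so days on the diet and days in the experiment cannot be told apart. In a bulk sample, fewer cells of a type and less RNA per cell cannot be told apart.

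B cells recognise antigen through a membrane immunoglobulin that cannot signal by itself. Cd79a and Cd79b encode the paired chains that sit beside it and carry the signal into the cell, and Cd22 encodes a sialic acid-binding receptor that dampens that signal. Ms4a1 encodes CD20, a surface protein of B cells, and Pax5 encodes the transcription factor that holds cells in the B lineage and switches on Cd79a and other B cell genes. The small intestinal lamina propria holds B cells and many plasma cells beside its T cells, and plasma cells have switched Pax5 and Ms4a1 off.

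The probes differ in what they can report, and 7 sequences are shown because later results turn on them. Positions are those annotated in the files for mouse build mm9, all probes are 60 bases long, and exon or intron annotation was not used here. Cd79a probe 1 is annotated at chr7:25684357-25684614 on the plus strand, an interval of 258 bases that is longer than the probe. Cd79a probe 2 is annotated at chr12:53180558-53180617 on the plus strand, a different chromosome under the same gene name, and its last 30 bases are shown with a terminal run of 6 A in capitals. The probes for Pax5 are annotated on the minus strand at chr4:44658421-44658480 for probe 1 and chr4:44550354-44582908 for probe 2, whose interval covers 32555 bases. The Cd22 probe is annotated at chr7:31651249-31651308 on the minus strand, and its bases 8 to 37 are shown with a repeat of the letters CCAA in capitals. Windows of 30 bases are shown for the probes named Gm8479 (chr6:65279004-65279063, plus strand) and Banp (chr8:124549862-124549921, plus strand), which hold the same repeat, also in capitals.
Cd79a probe 1: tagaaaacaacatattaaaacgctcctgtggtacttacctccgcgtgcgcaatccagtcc
Cd79a probe 2: gtgataataaatccttcccaaagcAAAAAA
Pax5 probe 1: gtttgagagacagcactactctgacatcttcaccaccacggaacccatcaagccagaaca
Pax5 probe 2: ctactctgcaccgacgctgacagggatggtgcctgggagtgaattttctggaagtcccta
Cd22: gaaaaaCCAACCAACCAACCAAacaaaaaa
Gm8479: aatagaaaaCCAACCAACCAACCAACCAAc
Banp: atCCAACCAACCAACCAACCAACCAAacca

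The Cd79b probe is annotated at chr11:106172780-106172839 and the Ms4a1 probe at chr19:11325367-11325426, both on the minus strand. Levels are given as log2 of the processed spot intensity minus the array's 75th percentile, so 0 is the 75th percentile of an array and 1 unit is a doubling. A probe counts as well above background where the scanner software marks its spot so, and a level without that mark has no firm size. Apart from that numbering, levels are compared between arrays for 1 probe and not between probes.

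The arrays differed in how much they detected. Of the spots that were not controls, the control arrays had 63.8% ± 11.96 (SD, n = 5) well above background, the day 10 arrays 58.5% ± 2.91 and the day 30 arrays 51.3% ± 5.48, between 45.2% on day 30 replicate 3 and 82.0% on control replicate 1. Slide 1 held the 5 control arrays and day 10 replicates 1 to 3, and slide 2 held day 10 replicates 4 and 5 and the 5 day 30 arrays. Control and day 30 arrays never shared a slide. The label was set against a list of T cell genes. Of these, 13 of 15 genes, Cd4, Cd3e, Cd3d and Lck among them, were well above background on all 15 arrays. The other 2, Cd247 and Bcl11b, were so on 5 control, 5 day 10 and 4 day 30 arrays each. Over the array 26.6% of all probes, dimmer probes of a gene included, were so on all 15 arrays. So were 4 of 12 genes on a myeloid list, 2 of 10 on an epithelial list and 4 of 10 on a CD8 T and NK list. Detection alone thus does not verify the label.

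Of the 7 B-lineage probes, those for Cd22 and Pax5 probe 1 were well above background on all 15 arrays and that for Ms4a1 on 0. Over the array, 26.6% of all probes were so on all 15 arrays. For Cd79b 5 control, 4 day 10 and 4 day 30 arrays were so, and for Pax5 probe 2 they numbered 4, 5 and 5. Cd79a probe 1 passed the mark on 2 controls, 2 arrays of day 10 and 4 of day 30, and Cd79a probe 2 on 2, 3 and 0. Each array carried between 3 and 6 of the 7 probes well above background, and 9 arrays carried 5. A test across the array was run for probes that passed the background mark on 5 or more arrays, which kept 38462 probes and 6 of the 7 B-lineage probes, all but that for Ms4a1.

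**Figure D1:**
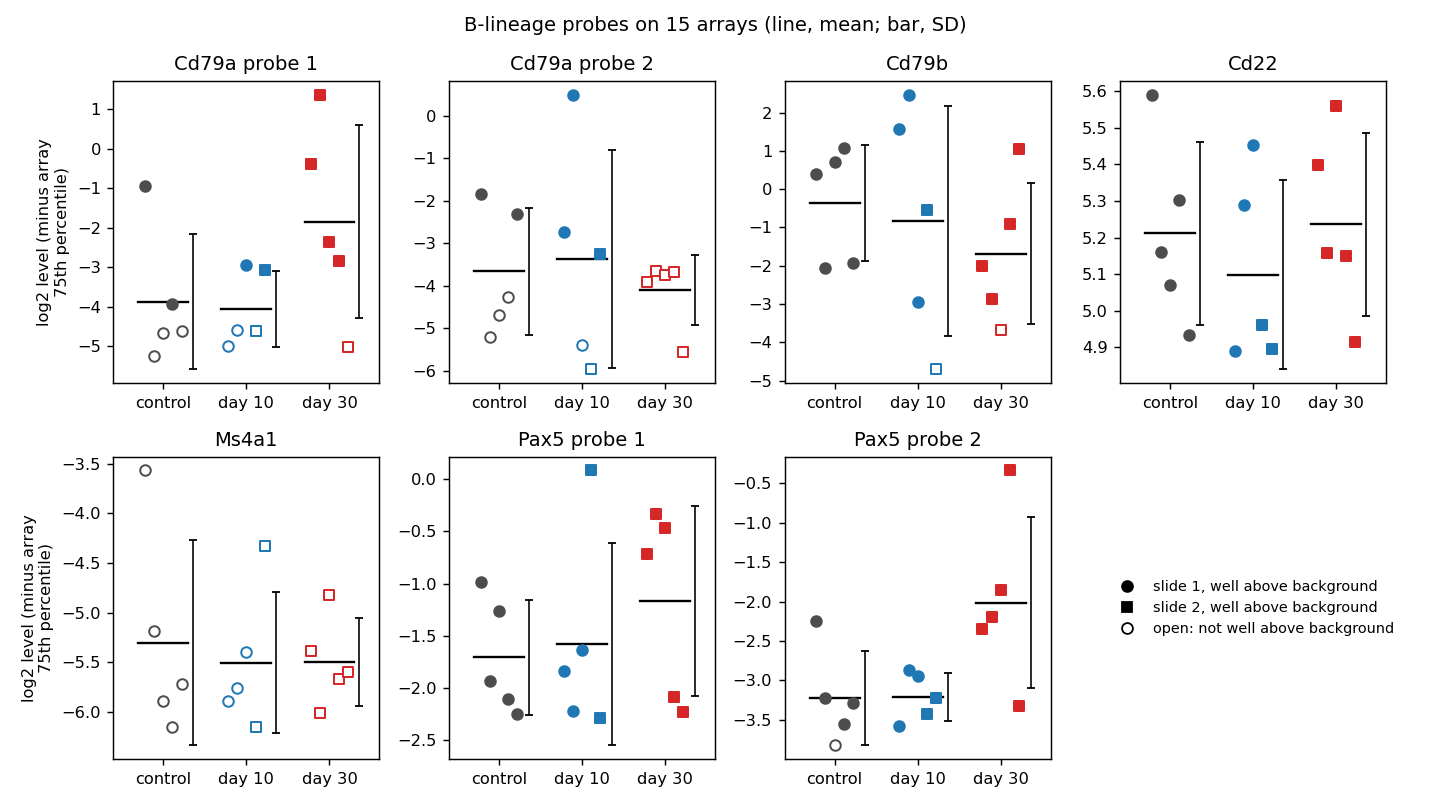
Log2 level of each B-lineage probe (minus the array's 75th percentile, a scale of its own in each panel) on 15 arrays in control, day 10 and day 30, with circles for slide 1, squares for slide 2, open symbols for spots not well above background, a line for the mean and a bar for the SD of 5 arrays. The groups overlap in every panel, the Cd22 levels stay between 4.89 and 5.59, and no Ms4a1 spot is well above background.

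The antigen receptor's signalling chain Cd79a was bright on some arrays and not well above background on others. Its probe 1 read -0.93, -5.25, -4.66, -3.92 and -4.60 in control replicates 1 to 5. The day 10 arrays read -4.99, -4.59, -2.95, -4.62 and -3.06, and the day 30 arrays read -0.37, 1.37, -2.37, -2.83 and -5.003. Day 30 replicates 2 and 1 and control replicate 1 stood highest, while day 30 replicate 5 lay among the lowest, so the groups overlapped. The mean was -1.84 ± 2.43 (SD, n = 5) at day 30 against -3.87 ± 1.71 in control and -4.04 ± 0.96 at day 10.

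Cd79a probe 2 did not follow probe 1. It read -1.84, -5.19, -4.68, -4.27 and -2.32 in control, -2.73, 0.49, -5.39, -5.97 and -3.25 at day 10, and -3.92, -3.64, -3.74, -3.67 and -5.56 at day 30. The highest array was day 10 replicate 2, on which probe 1 was not well above background. Both probes were well above background on 2 arrays, probe 1 alone on 6, probe 2 alone on 3 and neither on 4. Over the 15 arrays the correlation between the probes had Pearson r = 0.12 (permutation p = 0.673, adjusted over the 2 genes with 2 probes 0.673) and Spearman rho = 0.34 (permutation p = 0.219, adjusted 0.410). It was 0.21 without the 2 arrays farthest from the median of probe 1, 0.10 within slide 1 and 0.65 within slide 2.

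The partner chain Cd79b had the widest range of the 7 probes, 7.17 log2 units over the 15 arrays. It read 0.40, -2.06, 0.72, 1.07 and -1.93 in control, 1.57, 2.46, -2.96, -0.54 and -4.71 at day 10, and -1.999, -2.87, -3.68, -0.91 and 1.05 at day 30. Day 10 held both the highest array, replicate 2, and the lowest, replicate 5, and the groups overlapped. The control mean was -0.36 ± 1.51 (SD, n = 5), that of day 10 -0.83 ± 3.01 and that of day 30 -1.68 ± 1.84. The 3 day 30 arrays on which Cd79a probe 1 ranked 2, 1 and 4 of 15 ranked 10, 12 and 14 for Cd79b.

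Cd22, the inhibitory co-receptor, was at nearly the same level on every array. It read 5.59, 5.16, 5.07, 5.30 and 4.93 in control, 4.89, 5.29, 5.45, 4.96 and 4.90 at day 10, and 5.40, 5.16, 5.56, 5.15 and 4.91 at day 30. The arrays of the 3 groups were fully interleaved. Its means were 5.21 ± 0.25 (SD, n = 5), 5.10 ± 0.26 and 5.24 ± 0.25. The SD over the 15 arrays was 0.24, and 0.0858% of the 38462 tested probes had a smaller one. Among 659 tested probes whose mean level lay within 0.5 log2 units of it, 0.607% did, and their median SD was 0.62.

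Ms4a1, the CD20 gene, ran from -6.15 to -3.57 over the 15 arrays and was highest on control replicate 1. It had medians of -5.72 in control, -5.76 at day 10 and -5.60 at day 30, all from spots not well above background, so no difference is given for it.

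Pax5 was measured on every array by its probe 1. That probe read -0.99, -1.93, -1.26, -2.11 and -2.25 in control, -1.84, -2.22, -1.63, 0.08 and -2.29 at day 10, and -0.72, -0.33, -0.47, -2.08 and -2.23 at day 30. Day 10 replicate 4 was the highest of the 15 arrays, followed by day 30 replicates 2, 3 and 1, and the other two day 30 arrays lay among the low values. The control mean was -1.71 ± 0.55 (SD, n = 5), that of day 10 -1.58 ± 0.97 and that of day 30 -1.17 ± 0.91.

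Pax5 probe 2 read -2.25, -3.23, -3.81, -3.56 and -3.28 in control, -3.57, -2.86, -2.95, -3.43 and -3.22 at day 10, and -2.35, -2.19, -1.86, -0.34 and -3.33 at day 30. Day 30 replicates 4, 3 and 2 were its highest arrays, followed by control replicate 1 and day 30 replicate 1. The means were -3.23 ± 0.59 (SD, n = 5), -3.21 ± 0.30 and -2.01 ± 1.09, and the groups overlapped. The correlation between the Pax5 probes over the 15 arrays had Pearson r = 0.17 (permutation p = 0.568, adjusted 0.673) and Spearman rho = 0.23 (permutation p = 0.410, adjusted 0.410). It was 0.27 without the 2 arrays farthest from the median of probe 1, 0.31 within slide 1 and -0.10 within slide 2. The array with the highest probe 1 value, day 10 replicate 4, ranked 12 of 15 for probe 2.

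Day 10 was set against control as the early point of the diet. None of the 6 tested B-lineage probes differed from control (0 called at an adjusted p under 0.05 by limma, 0 at an unadjusted p under 0.05), where 0% of all tested probes were called and 2.78% had an unadjusted p under 0.05. Of these, 3 probes had a higher and 3 a lower mean at day 10, with a median log2 difference of -0.05 against -0.02 over all tested probes. The differences lay between -0.48 for Cd79b (SE 1.28) and 0.29 for Cd79a probe 2 (SE 1.097). Only the interval for Cd22 was narrow, from -0.59 to 0.36 around -0.11 (95% interval). Within slide 1, the slide with arrays of both groups, the difference was 0.72 for Cd79b, 1.12 for Cd79a probe 2, -0.30 for Cd79a probe 1, -0.19 for Pax5 probe 1, 0.10 for Pax5 probe 2 and -0.00024 for Cd22.

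Day 30 was set against control as the later point. None of the 6 probes passed the test (0 called, 0 at an unadjusted p under 0.05), against 0% called and 5.03% with an unadjusted p under 0.05 over all tested probes. A higher mean than control was found for 4 probes and a lower one for 2, with a median log2 difference of 0.28 against -0.03 over all tested probes. The lower ones were Cd79b and Cd79a probe 2. The day 30 values of Cd79a probe 2 come from spots not well above background, so its place in this count and median has no firm direction. The largest difference was that of Cd79a probe 1, 2.03 (SE 1.11, 95% interval -0.31 to 4.38, limma adjusted p = 0.945). This probe was well above background on only 2 control and 4 day 30 arrays, so its difference has no firm size. In the authors' deposited log2 table, which holds values only for spots well above background, limma gave -0.24 for this probe. That table has a value for it on only 6 arrays over the 3 groups. The difference was 1.02 with normexp background correction and 3.17 with each array's detection share added to the model, and on leaving out 1 array it ran from 1.23 (without day 30 replicate 2) to 2.82 (without day 30 replicate 5). Pax5 probe 2 had a difference of 1.21 (SE 0.64, limma adjusted p = 0.945) and Pax5 probe 1 one of 0.54 (SE 0.64). Cd79b had a lower mean, by -1.32 (SE 1.28), and Cd22 a difference of 0.02 (95% interval -0.45 to 0.50), which was -0.36 with quantile normalization. Cd79a probe 2 was well above background on 0 day 30 arrays, and no fold is given for it.

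Between day 30 and day 10 the differences resembled those against control for Cd79a and Pax5, but the comparisons share the day 30 arrays. None of the 6 probes was called (0 at an unadjusted p under 0.05), where 0.0026% of all tested probes were called and 4.3% had an unadjusted p under 0.05. Cd79a probe 1 had a difference of 2.20 (SE 1.11, 95% interval -0.14 to 4.55, limma adjusted p = 0.999) and Pax5 probe 2 of 1.19 (SE 0.64). That of Cd79a probe 1 has no firm size, as only 2 day 10 arrays were well above background. The differences were 0.41 for Pax5 probe 1, -0.85 for Cd79b and 0.14 for Cd22. No fold is given for Cd79a probe 2, which was well above background on 0 day 30 and 3 day 10 arrays. The single called probe of the array was one for Homer1, a synaptic scaffold gene named here after its values were seen, with a log2 difference of -6.59 (limma adjusted p = 0.0405). It was well above background on 5 day 10 and 0 day 30 arrays. Leaving out any 1 of day 10 replicates 1, 2, 4 and 5, the 5 day 30 arrays or control replicates 1 and 2 brought that count to 0. With slide as a block 1 probe was called, and it was higher at day 30, so the Homer1 call was lost there.

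**Figure D2:**
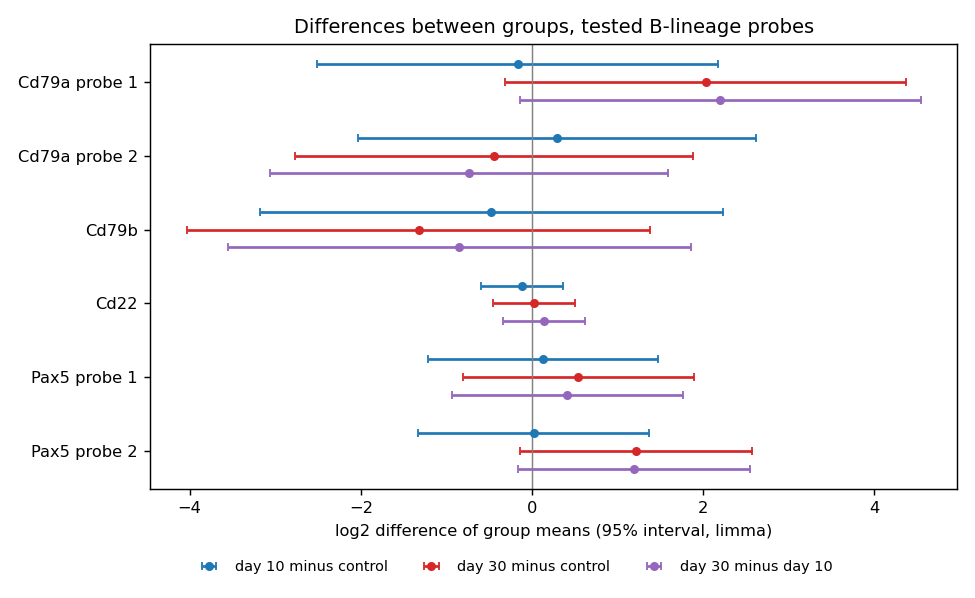
Log2 difference of group means with its 95% interval (limma, 5 arrays a group) for the 6 tested B-lineage probes, in blue for day 10 minus control, red for day 30 minus control and purple for day 30 minus day 10. Every interval crosses 0, and the widest belong to Cd79b and Cd79a, while those of Cd22 stay within 1 unit of 0. For Cd79a probe 2 the day 30 values come from spots not well above background.

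Slide and group are partly confounded, so the slide's part in these differences was not tested for day 30 against control except through day 10, which lay on both slides. Within slide 2, day 30 minus day 10 was 1.998 for Cd79a probe 1, 1.31 for Pax5 probe 2, 0.31 for Cd22, 0.94 for Cd79b and -0.06 for Pax5 probe 1, over 5 and 2 arrays. With slide as a block, day 30 minus control was 1.70 for Cd79a probe 1 and 1.41 for Pax5 probe 2. The same fit gave 1.66 for Cd79b and -0.25 for Pax5 probe 1, each the opposite sign to the fit without the slide, and 0.31 for Cd22. None of these was called.

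Whether the genes vary together was asked over the 15 arrays with probe 1 or the single probe of each gene, if tested, which gave 4 genes and 6 pairs. No pair passed after adjustment over the 6 pairs (0 with an adjusted permutation p under 0.05). The signalling partners Cd79a and Cd79b had Pearson r = -0.44 (permutation p = 0.101, adjusted 0.202) and Spearman rho = -0.44 (permutation p = 0.0997, adjusted 0.200). Their r was -0.36 without the 2 arrays farthest from the median of Cd79a, -0.08 within slide 1 and -0.49 within slide 2.

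Cd79a and Pax5 had Pearson r = 0.54 (permutation p = 0.0365, adjusted 0.154) and Spearman rho = 0.41 (permutation p = 0.133, adjusted 0.200). Without day 30 replicates 1 and 2 their r was 0.28, and without day 10 replicate 4 it was 0.77 (adjusted permutation p = 0.0111). Their r was 0.66 within slide 1, which holds no day 30 array, and 0.38 within slide 2. Day 30 replicates 1, 2 and 3 ranked 2, 1 and 4 of 15 for Cd79a probe 1 and 4, 2 and 3 for Pax5 probe 1.

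Cd79a and Cd22 had Pearson r = 0.51 (permutation p = 0.0515, adjusted 0.154) and Spearman rho = 0.59 (permutation p = 0.0228, adjusted 0.137). Within slide 1 their r was 0.83 (exact permutation p = 0.00372, adjusted 0.0223) and within slide 2 it was 0.51 (exact permutation p = 0.241, adjusted 0.541). It was 0.70 without day 30 replicates 1 and 2 (adjusted permutation p = 0.0451) and 0.69 without day 30 replicate 2 (adjusted permutation p = 0.0358). With quantile normalization in place of the 75th percentile it was 0.041. Cd79a probe 1 was well above background on 8 of the 15 arrays, so levels without a firm size enter all its correlations. With values raised to each array's lowest signal well above background, its r with Cd22 was 0.435 (adjusted permutation p = 0.311). In the deposited table it was 0.12 over the 6 arrays with a value.

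The other pairs were those of Cd22 with Pax5 and of Cd79b with both. Cd22 and Pax5 had Pearson r = 0.33 (permutation p = 0.225, adjusted 0.338) and Spearman rho = 0.44 (permutation p = 0.106, adjusted 0.200). Their r was 0.12 without the 2 arrays farthest from the median of Cd22, 0.45 within slide 1, 0.46 within slide 2 and -0.48 with quantile normalization. Cd79b had Pearson r = -0.24 with Pax5 (permutation p = 0.393, adjusted 0.472) and -0.11 with Cd22 (permutation p = 0.689, adjusted 0.689). The Spearman rho of these pairs was -0.19 and -0.19 (permutation p = 0.4997 and 0.490, both adjusted 0.4997). Without the 2 arrays farthest from the median of Cd79b their r was -0.37 and -0.43, within slide 1 -0.0077 and -0.07, and within slide 2 -0.11 and -0.33.

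**Figure D3:**
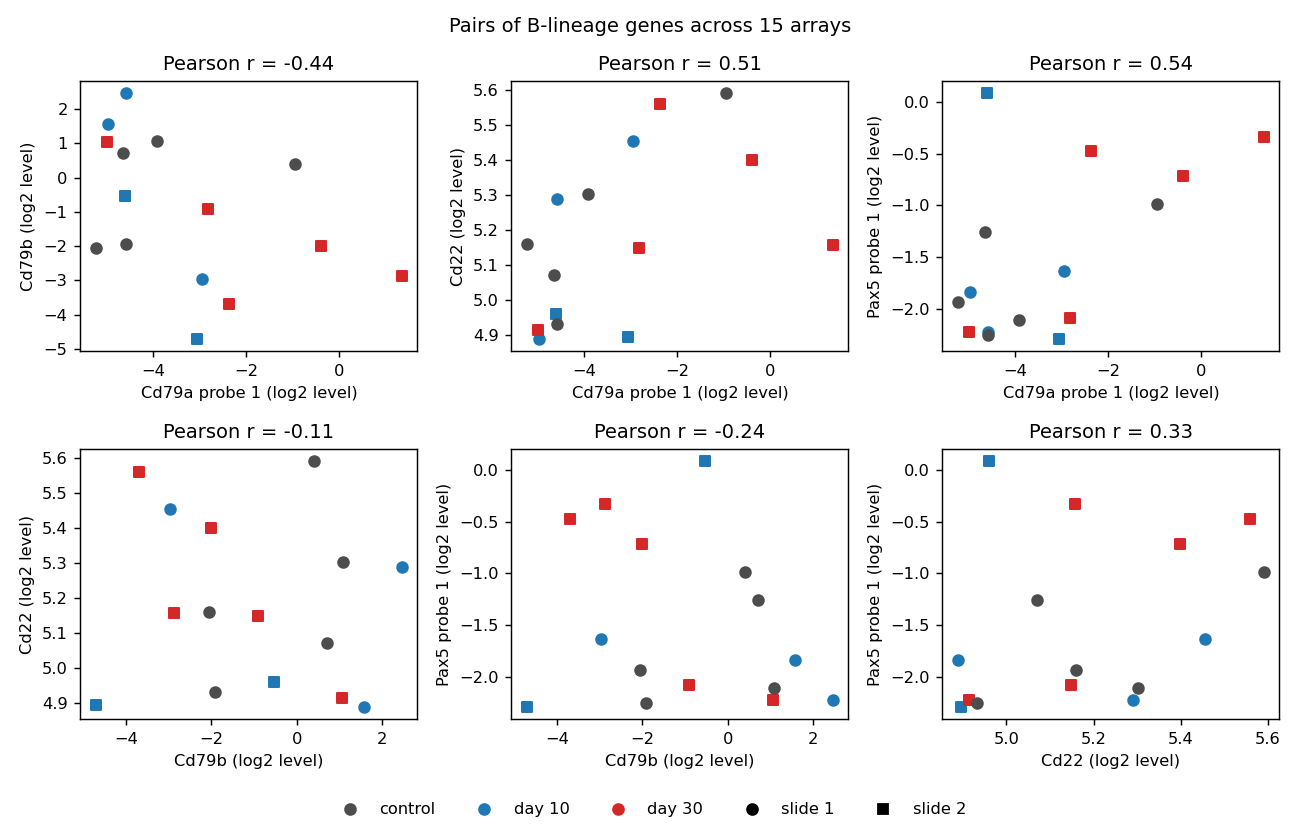
Each panel sets the log2 levels (minus the array's 75th percentile) of a pair of B-lineage genes against each other on 15 arrays, grey for control, blue for day 10 and red for day 30, with circles for slide 1 and squares for slide 2. Pearson r runs from -0.44 for Cd79a with Cd79b to 0.54 for Cd79a with Pax5, and no pair passes after adjustment.

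The other genes of the array give a scale for these values. Among the 26006 genes ranked by r against Cd79a, 4.43% had a higher r than Pax5, 5.49% a higher r than Cd22 and 95.3% a higher r than Cd79b. Against Pax5, 3.34% had a higher r than Cd79a and 15.7% a higher r than Cd22. Ranked against Cd22, 13.7% had a higher r than Cd79a, 29.2% a higher r than Pax5 and 72.2% a higher r than Cd79b. The genes most like Cd79a were Scg3 (r = 0.91), Klhl42 (0.86) and Hkdc1 (0.85). Those most like Cd79b were Smarca2 (0.82), Mfsd8 (0.80) and Hgd (0.80), and those most like Pax5 were A230051N06Rik (0.90), Serpina3h (0.82) and Tmem215 (0.82). These are the highest of many values over the same 15 arrays and are given as a description. None of these genes is a member or a listed B cell gene.

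The share of spots well above background on an array, a technical measure, was set against the 4 genes. Pearson r was -0.0023 for Cd79a (permutation p = 0.993), 0.30 for Cd79b (0.284), 0.20 for Cd22 (0.498) and -0.23 for Pax5 (0.423), with adjusted p between 0.664 and 0.993 over the 4 genes. Spearman rho was -0.19, 0.33, 0.06 and -0.33 in that order (permutation p = 0.489, 0.231, 0.831 and 0.239, adjusted between 0.478 and 0.831). For Cd22 the value depended on the scaling. Its r with that share was 0.84 with the 75th percentile taken over probes detected on all arrays, 0.86 with quantile normalization and 0.94 in the authors' deposited log2 table (adjusted permutation p = 0.00188, 0.0012 and 8e-05). The deposited table holds only spots well above background, with the same median (5.51) and maximum (12.88) on every array. The set of values it scales thus depends on the share itself, so its r and p are no independent test. For Cd22 this r also depended on 1 array. Without control replicate 1 the r of Cd22 with the share was -0.26 on the main scale.

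Of the 3 genes most like Cd22 across the arrays, Gm8479 and Banp had probes that share letters with the Cd22 probe. The highest r over the 15 arrays was that of Gm8479 (0.959), followed by Banp (0.958), which encodes a nuclear matrix-binding protein, and Ovol2 (0.946), and 258 of 26006 genes (0.992%) had r above 0.8. The probes of Gm8479 and Banp share a run of 20 bases with the Cd22 probe. The motif CCAACCAACCAA, searched as written and as its reverse complement TTGGTTGGTTGG, is in 6 probes as written and in 5 as the reverse complement, 0.0198% of all probes, and all 11 were well above background on 15 arrays, against 26.6% of all probes. This motif was chosen after the values were seen, and a match is a description of the probe. The probe of Ovol2 is not among the 11.

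Gm8479 ran from 3.37 to 4.18 and Banp from 6.53 to 7.33 over the 15 arrays, with an SD of 0.29 and 0.25. Control replicate 1 and day 30 replicate 3 were among the 3 highest arrays for Cd22, Gm8479 and Banp. Their r with Cd22 was 0.97 and 0.95 with quantile normalization and 0.93 and 0.96 with normexp background correction. Not every probe with the motif behaved so. Iqcg had r = 0.78 with Cd22, and Tspan18 had r = 0.020 and an SD of 1.12. Of those with the reverse complement, Nup107 had r = 0.51 with Cd22 and Sgsm2 had r = 0.22. Over the 10 other probes with the motif on either strand the median r was 0.84, and 5 were above 0.8, so the motif was in few of the 258 genes above that value. The repeat can be read from any of its 4 letters, and the count depends on that choice. Over the 4 readings between 9 (CAACCAACCAAC) and 13 probes (AACCAACCAACC) held it on either strand, every one of them was well above background on 15 arrays, and the median r with Cd22 of the others ran from 0.79 to 0.88. The Cd22 probe is also rich in A (48.3%), a content reached by 404 probes, of which 54.2% were well above background on all 15 arrays. Whether the Cd22 signal comes from Cd22 transcripts was not tested.

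**Figure D4:**
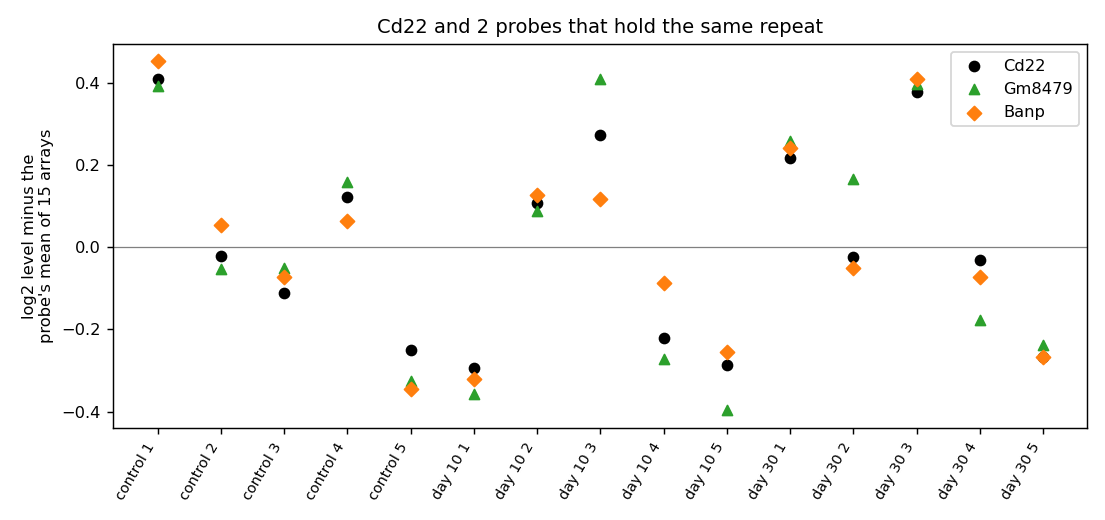
Log2 level minus the probe's own mean over 15 arrays for Cd22 (circles), Gm8479 (triangles) and Banp (diamonds), with the arrays on the x axis in order of group and replicate. The 3 probes move together, with Pearson r = 0.959 for Gm8479 and 0.958 for Banp against Cd22, and control replicate 1 and day 30 replicate 3 are among the highest for each.

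Other genes of the B cell lineage were taken from a list of 23, of which 22 were on the array. Of these, 15 were tested and 7 were well above background on all 15 arrays. Over the array, 26019 of 34821 genes were tested by their brightest probe. Of all probes, 26.6% were well above background on all 15 arrays. That share also counts the dimmer probes of a gene, while the list takes the brightest, so the 2 are unlike measures. The counts are not read as setting these genes apart. None of the 15 tested genes was called in any comparison. At day 30, 9 of the 15 had a higher mean than in control, with a median log2 difference of 0.06 against -0.03 over all tested probes. At day 10 against control 9 were higher, with a median of 0.15, and at day 30 against day 10 8 were higher, with a median of 0.05. The list's summed level, in multiples of the array's 75th percentile, ran from 11.9 to 20.2 in control, 10.69 to 20.9 at day 10 and 8.78 to 29.9 at day 30. Some B cell genes were rarely detected. Blk, a B cell kinase, passed the background mark on 2 controls, 0 arrays of day 10 and 0 of day 30, and Spib, a B cell transcription factor, on 0, 0 and 1. Ebf1, which acts with Pax5 in B cell commitment, was well above background on 4, 5 and 3 arrays, and Cd72, a surface receptor of B cells, on 5, 5 and 5.

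Each of these 15 genes was set against the 4 B-lineage genes, 60 relations in all, computed after the values above were seen. In 32 relations r was above 0 and in 28 below it, with a median of 0.042, and 2 had an adjusted permutation p under 0.05. Over all genes ranked, the median r was 0.038 with Cd79a, -0.042 with Cd79b, 0.125 with Cd22 and 0.048 with Pax5. For Pax5, 10 of its 15 relations were below 0, and for Cd22 11 of 15 were above it. The most negative were those of Cd79b with Pou2f2, a B cell transcription factor (r = -0.69, permutation p = 0.00423, adjusted 0.063), and of Cd22 with Cd37, a tetraspanin (r = -0.67, permutation p = 0.00342, adjusted 0.063), the latter -0.016 with quantile normalization. Pax5 and Cd37 had r = -0.40 (adjusted permutation p = 0.449), which became -0.84 (adjusted permutation p = 0.0321) once the 2 arrays with Pax5 farthest from its median were left out. Both relations that passed were with Ighm, the heavy chain constant region of IgM, the immunoglobulin that pairs with Cd79a and Cd79b. Ighm was well above background on all 15 arrays and read -1.44, -2.09, -2.13, -2.52 and -3.01 in control, -3.03, -3.04, -2.73, -1.88 and -2.09 at day 10, and -1.18, -0.52, -1.43, -2.55 and -2.85 at day 30. Day 30 replicates 2, 1 and 3 and control replicate 1 were its 4 highest arrays, and its groups overlapped.

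Ighm and Cd79a had Pearson r = 0.82 (permutation p = 0.00019, adjusted 0.0114 over the 60 relations) and Spearman rho = 0.58 (permutation p = 0.026, adjusted 0.195). Without day 30 replicates 1 and 2 their r was 0.58 (permutation p = 0.0373, adjusted 0.186), so the call was lost without those arrays. The call was also lost within slide 1, which holds no day 30 array (r = 0.59, exact permutation p adjusted 0.352), within slide 2 (0.87, exact permutation p adjusted 0.381) and with group means removed (0.77, adjusted permutation p = 0.0986). With quantile normalization r was 0.73 (adjusted permutation p = 0.0477). Of 26006 genes, 0.0846% had a higher r with Cd79a. With Cd79a probe 2 the r of Ighm was -0.16.

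Ighm and Pax5 had Pearson r = 0.78 (permutation p = 0.00067, adjusted 0.0201) and Spearman rho = 0.70 (permutation p = 0.00464, adjusted 0.178). Without the 2 arrays farthest from the median of Pax5 their r was 0.82 (adjusted permutation p = 0.0321). With quantile normalization it was 0.87 (adjusted permutation p = 0.0072). The call was lost within slide 1 (0.78, exact permutation p adjusted 0.319), within slide 2 (0.74, exact permutation p adjusted 0.421) and with group means removed (0.80, adjusted permutation p = 0.0693). With Pax5 probe 2 the r of Ighm was 0.33. The Ighm probe shares runs of at most 6 bases with any of the Cd79a and Pax5 probes. With Cd79b the r of Ighm was -0.47 (permutation p = 0.0769, adjusted 0.355), and with Cd22 it was 0.40 (permutation p = 0.144, adjusted 0.449).

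**Figure D5:**
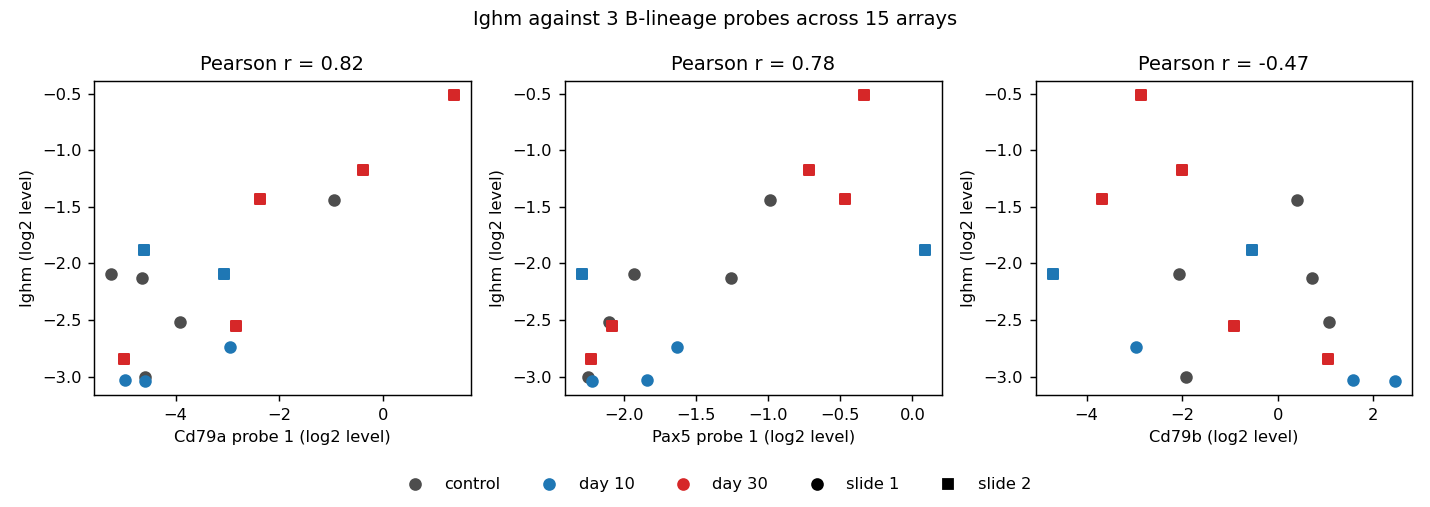
Log2 level of Ighm against that of Cd79a probe 1, Pax5 probe 1 and Cd79b (all minus the array's 75th percentile) on 15 arrays, grey for control, blue for day 10 and red for day 30, with circles for slide 1 and squares for slide 2. Pearson r is 0.82, 0.78 and -0.47, and day 30 replicates 1 and 2 lie at the upper right of the Cd79a panel.

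Markers of other cells of the lamina propria were counted in the same way, and 0 genes were called in any list and comparison. Of the plasma cell list 10 of 12 genes were tested and 6 were well above background on all 15 arrays. The share of all probes was 26.6%, an unlike measure that also counts the dimmer probes of a gene. Jchain, the joining chain of secreted immunoglobulin, was among the 6. The list's median log2 difference was 0.14 at day 10 and 0.07 at day 30 against control, and -0.30 between day 30 and day 10. Jchain had r = -0.27 with Cd79a and -0.04 with Pax5, given as a description over 15 arrays. It does not stand for the list, whose 12 genes went both ways. Their r ran from -0.55 to 0.44 with Cd79a and from -0.23 to 0.50 with Pax5. The summed plasma cell level ran from 15.9 to 59.1 in control, 25.7 to 43.5 at day 10 and 19.5 to 50.6 at day 30.

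Of the antigen-presentation list (MHC class II), 8 of 9 genes were tested, with median differences of 0.0032 at day 10, 0.50 at day 30 and 0.57 between them. Cd74, the invariant chain that B cells and other antigen-presenting cells make, had a difference of 2.55 at day 30 against control (unadjusted p = 0.0011 by limma, not called), and was well above background on all 15 arrays. H2-Aa, a class II chain, passed the background mark on 5 controls, 1 array of day 10 and 2 of day 30. Its means were lower than control by differences with no firm size, -5.17 at day 10 and -4.52 at day 30 (unadjusted p = 0.0013 and 0.0037 by limma, neither called). The median differences, in the order day 10 and day 30 against control and day 30 against day 10, were 0.19, 0.32 and 0.29 for the T cell list (15 tested), and -0.28, 0.41 and 0.30 for the myeloid list (8 tested of 12). They were -0.05, -0.08 and 0.11 for the epithelial list (9 tested of 10) and 0.48, -0.25 and -0.41 for the CD8 T and NK list (9 tested of 10). The part that such cells have in the B-lineage values was not tested.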

How the data were processed

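Per the file headers, Agilent Feature Extraction (version 10.7.3.1, protocol GE1_107_Sep09) made the linear intensity values of the 15 scanner files, and the probe positions are those of build mm9. The same headers describe the processed intensity as background subtracted, with no scaling to other arrays. The authors' deposited value table holds log2 values, given only for spots well above background. Every column has a median of 5.51 and a maximum of 12.88. How the table was normalized is not given in the sources used here. It served as an alternative.

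Spots marked as outliers and 1 damaged spot line were left out, no spot was saturated, and spots of a probe were averaged. For the main value, log2 of this intensity was centred on the 75th percentile of each array's probes, controls left out. The number of arrays, 5 a group, limits the precision. RefSeq symbols (table for another build, used for names only) were found for 31461 of 55681 probes, and other probes kept the array's name. All members and lists were chosen with earlier results of these data known.

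The 3 groups were compared in 1 model of the 15 arrays (limma 3.58.1, R 4.3.3, two-sided, eBayes with trend), with Benjamini-Hochberg adjustment over 38462 probes well above background on at least 5 arrays and a threshold of 0.05. Correlations used two-sided permutation tests with 100000 resamples (exact enumeration within slides) in Python 3.11.15 with numpy 2.4.6 and pandas 2.3.3, adjusted within each family. A gene entered a correlation or list by its probe of highest mean level. Named were all probes of the members, genes of the lists fixed by name, and the 3 genes most like each member. Homer1, Iqcg, Tspan18, Nup107, Sgsm2 and the motif were chosen after their values were seen. The fit and the permutation test were tested on simulated data. Alternatives covered scaling, background correction, a floor, filters, slide, replicate number, detection share and leaving out each array. The result of 1 listed gene is not reported here.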

Additional observations from a re-analysis of the deposited data

Results flagged for a closer look

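Within groups of 5 arrays, 2 of the 24 groups looked at (7 probes and the detection share in 3 groups) held an array far from the other 4, where chance flags about 1 in 20 groups. Pax5 probe 1 read 0.08 on day 10 replicate 4, while the other day 10 arrays lay between -2.29 and -1.63. Pax5 probe 2 read -3.43 on that array, among the low values of its group. Cd79a probe 2 read -5.56 on day 30 replicate 5, below the other day 30 arrays at -3.92 to -3.64, and no day 30 spot of this probe was well above background.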

How the results depend on the processing

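No B-lineage probe was called in any comparison under any alternative. The count of called probes over the whole array was 0 for day 10 minus control under every alternative. For day 30 minus control it was 0 except 1 with slide as a block. For day 30 minus day 10 it was 1 under the main settings (Homer1, lower at day 30) and 1 with slide as a block (a probe higher at day 30), and 0 with quantile normalization, normexp, the deposited table, a floor at the dimmest signal that counts as above background, no filter, a filter on all 15 arrays, 1 probe per gene, detection share as a covariate, within slide 2 and with the replicate block, and 0 to 1 on leaving out each array. Each replicate number occurs once in each group, so the replicate number as a block cannot move a B-lineage difference of means. That of Cd79a probe 1, day 30 minus control, stayed at 2.03 by design. Correlations of same-numbered deviations from the group mean ran from -0.12 to 0.14. They were not set against different-numbered ones and cannot settle whether the numbers pair samples, which the labels do not state. With a looser detection mark, 5 in place of 2 probes were detected on all 15 arrays.

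The count of pairs with an adjusted p under 0.05 was 0 except 1 within slide 1, 1 without the 2 arrays farthest from the median, and 0 to 1 on leaving out each array. The count of genes called against the detection share was 0 except 1 (Cd22) with the percentile over detected probes, quantile normalization and the deposited table. Scaling to the percentile over detected probes moved the median of all probes by -0.11 at day 10 and -0.42 at day 30 against control, and the deposited table gave -0.22 at day 30. The cause of these and the following sign changes was not tested.

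Day 30 minus control changed sign for Cd22 to -0.36 (percentile over detected probes), -0.36 (quantile), -0.080 (normexp) and -0.50 (deposited). It became -0.24 for Cd79a probe 1 and -0.031 for Pax5 probe 1 (deposited), and 1.66 for Cd79b and -0.25 for Pax5 probe 1 (slide block). The deposited table held a value on only 6 arrays for Cd79a probe 1 and on 10 for Cd79b. Day 30 minus day 10 became -0.16 (percentile over detected probes), -0.16 (quantile) and -0.26 (deposited) for Cd22. With the slide block it became 0.94 for Cd79b and -0.062 for Pax5 probe 1. By design this is the same estimate as that within slide 2, the only slide with both groups.

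With the slide block, by design the estimate within slide 1, day 10 minus control became 0.72 for Cd79b and -0.19 for Pax5 probe 1. It became 1.14 for Cd79b, -0.059 for Pax5 probe 1 and -0.016 for Pax5 probe 2 (deposited), -0.072 for Pax5 probe 2 (percentile over detected probes), 0.11 for Cd79b (normexp) and 0.32 for Cd79a probe 1 (detection share as a covariate).

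The r of Cd79b and Cd22 became 0.31 (percentile over detected probes), 0.23 (quantile) and 0.30 (deposited), and that of Cd22 and Pax5 became -0.48 (quantile). Against the detection share, r became 0.18, 0.10, 0.39, 0.22 and 0.66 for Cd79a (percentile over detected probes, deposited, group-centred, mean of both probes, slide 1), and 0.23, 0.22 and 0.38 for Pax5 (percentile over detected probes, deposited, slide 1). Within slide 2 it was -0.071 for Cd79b and -0.66 for Cd22.

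Leaving out each array, day 10 minus control ran from -0.51 to 0.57 for Cd79a probe 1, -0.67 to 0.94 for Cd79a probe 2, -1.30 to 0.49 for Cd79b, -0.29 to 0.31 for Pax5 probe 1 and -0.13 to 0.26 for Pax5 probe 2. Day 30 minus control ran from 1.23 to 2.82 for Cd79a probe 1 and -0.056 to 0.12 for Cd22, and day 30 minus day 10 from 1.40 to 2.99 for Cd79a probe 1. The r of Cd79b and Cd22 ran from -0.33 to 0.049, and against the detection share from -0.39 to 0.13 for Cd79a and -0.26 to 0.44 for Cd22.

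The measured values of Cd79a probe 2 at day 30 come from spots not well above background, so its differences there carry neither a size nor a direction. They changed sign against control, to 0.075 (quantile), 0.10 (normexp), 0.57 (detection share as a covariate) and 1.62 (slide block), and against day 10, to 0.50 (slide block and within slide 2). Leaving out each array, they ran from -0.83 to 0.010 against control and -1.39 to 0.23 against day 10.

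Ms4a1 had no spot well above background, and Cd79a lay near background on many arrays, so differences of these genes have no firm size.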
